A study of Mus musculus with 3 samples.

Results

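Cells labelled shKSRP and kept in growth medium were compared with mock-transfected cells treated with BMP2, by RNA-seq of polyadenylated RNA in C2C12 cells, a mouse myoblast line that behaves as a mesenchymal precursor and can be steered to muscle or to bone. The comparison uses 2 of the 3 libraries of the study. It covers 10767 of the 22705 RefSeq genes in the files: those at 1 FPKM or more in either library, above 0 in both, and with a RefSeq transcript of at least 300 nt. FPKM, the deposited unit, counts fragments relative to the length of the transcript and to the mapped fragments of the library. The first library came from C2C12 cells transfected with a short hairpin RNA against KSRP, with no BMP2, in medium with 20% fetal bovine serum. The second came from mock-transfected C2C12 cells treated with BMP2 and titled as kept in differentiation medium, for which the protocol names horse serum at 2% and BMP2 at 100 to 300 ng/ml. The mock library, from mock-transfected cells without BMP2 in the growth medium, stands beside both as a reference level. The description of the BMP2 library ends in "1d", and the labels do not say what that stands for or how long BMP2 was given. Whether the hairpin cells were a clone, a pool or a transient transfection was not given in the labels used here.

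The hairpin, the serum and BMP2 differ together between these libraries, so their parts in any difference cannot be told apart. Each side is 1 library. Replicates are lacking for every difference, so none carries a p-value. A gene was called higher or lower where FPKM + 1 differed by 2-fold or more, which is a log2 ratio of at least 1 in size. Ratios are always the library labelled shKSRP over the BMP2 library, and where a pair of values is joined by "against", the library labelled shKSRP comes first. A value or difference in parentheses with no unit is a log2 ratio. The ± after a value is the half-width of the deposited 95% interval. For a gene with several transcripts it is the square root of the summed squares of their half-widths, which treats the transcripts as independent. It covers counting and assignment of fragments only. In bulk RNA, fewer cells of a type and less RNA per cell cannot be told apart.

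KSRP is an RNA-binding protein that hastens the decay of mRNAs with AU-rich elements and takes part in microRNA maturation. BMP2 binds serine and threonine kinase receptors, which phosphorylate SMAD proteins, and these switch on the inhibitors of differentiation (Id genes), the inhibitory SMADs and, later, the genes of bone. In C2C12 cells this programme is known to hold back muscle differentiation, which withdrawal of serum otherwise starts.

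Khsrp, the gene of KSRP and the target of the hairpin, lies at chr17:57160472-57170930 on the minus strand (mm9, the build of the files). It stood at 31.4 ± 0.85 FPKM in mock, 28.4 ± 0.64 in shKSRP-labelled cells and 27.1 ± 0.67 with BMP2. The library labelled shKSRP lay between the mock libraries for this mRNA, with a log2 ratio of 0.06 to the BMP2 library. The label is therefore used only as a label. Myoblast markers were present in both libraries, with all 6 at 1 FPKM or more. Of these, Des, the muscle intermediate filament, was at 185 ± 2.3 and 218 ± 2.6 FPKM in the library labelled shKSRP and the BMP2 library. Ibsp, a late bone matrix gene, was listed at 0 in all 3 libraries.

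Of the 10767 genes, 513 (4.76%) were higher in the library labelled shKSRP, 732 (6.8%) were lower, and 9522 differed by less than 2-fold. The median log2 ratio was −0.02, with quartiles at −0.38 and 0.31. Differences past 4-fold were found in 101 genes on the higher side and 144 on the lower side, and past 8-fold in 22 and 31. The interval had a median half-width of 3.14% and 3.32% of FPKM in shKSRP-labelled cells and with BMP2 over the 5767 genes at 10 FPKM or more. Some called genes lay within the interval of their ratio from the 2-fold line, among them Neu1, Rps27a, Ssbp2, Rflnb, S100a4, Rassf3 and Id1. Their full number is not given here. Cufflinks assembled each library on its own, so pieces of a gene can fall into other loci. A further measure, chosen after seeing the data, therefore weighted each transcript's FPKM by the bases it put on the RefSeq exons of the gene, whatever its locus. By this exon coverage 391 of 10681 genes were higher and 593 lower. It is given below beside single called genes whose call it ended or whose ratio it shrank by more than 1.5-fold. The estimate of fragments behind each library, from the widths of the intervals, was 62.8 M (mega) for the library labelled shKSRP and 54.6 M for the BMP2 library. Just inside the line on the higher side stood Neu1 (1.0046), Rps27a (1.0062) and Ssbp2 (1.0063), all under the line by exon coverage (0.9083, 0.5804 and 0.8005), and just outside it Smarcal1 (0.9949) and Tjp1 (0.9926). On the lower side, Rflnb (−1.0005), S100a4 (−1.0009) and Rassf3 (−1.0023) were just inside, and Hdac7 (−0.9978), Foxq1 (−0.9956) and Plau (−0.9946) just outside.

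**Figure D1:**
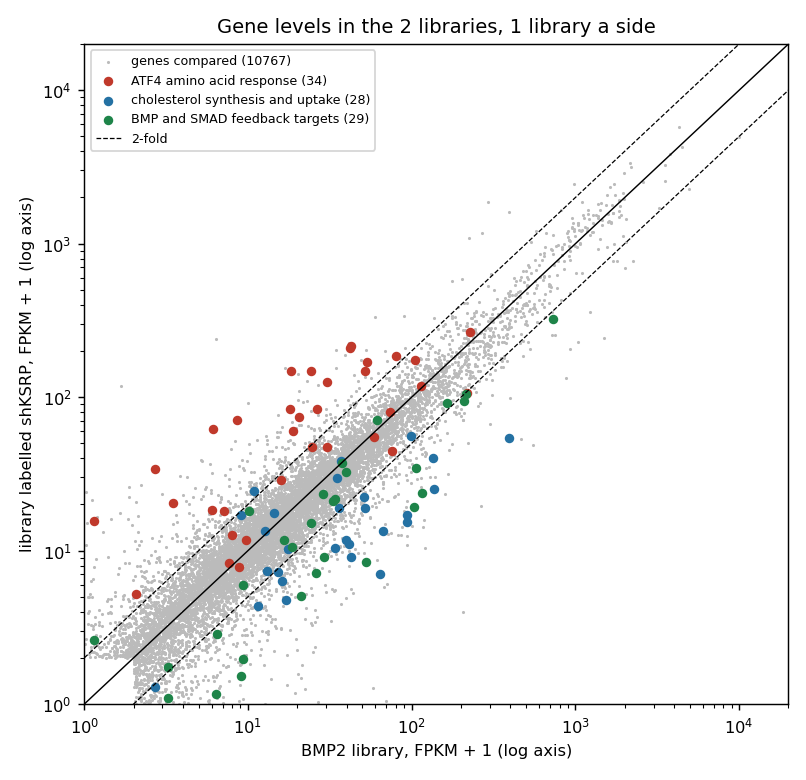
Each point is a gene, with FPKM + 1 in the BMP2 library on the horizontal log axis and in the library labelled shKSRP on the vertical log axis. The solid line marks equal levels and the dashed lines 2-fold. Genes of the amino acid response (34) lie mostly above the upper dashed line, and cholesterol genes (28) and BMP targets (29) lie mostly below the diagonal.

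**Figure D2:**
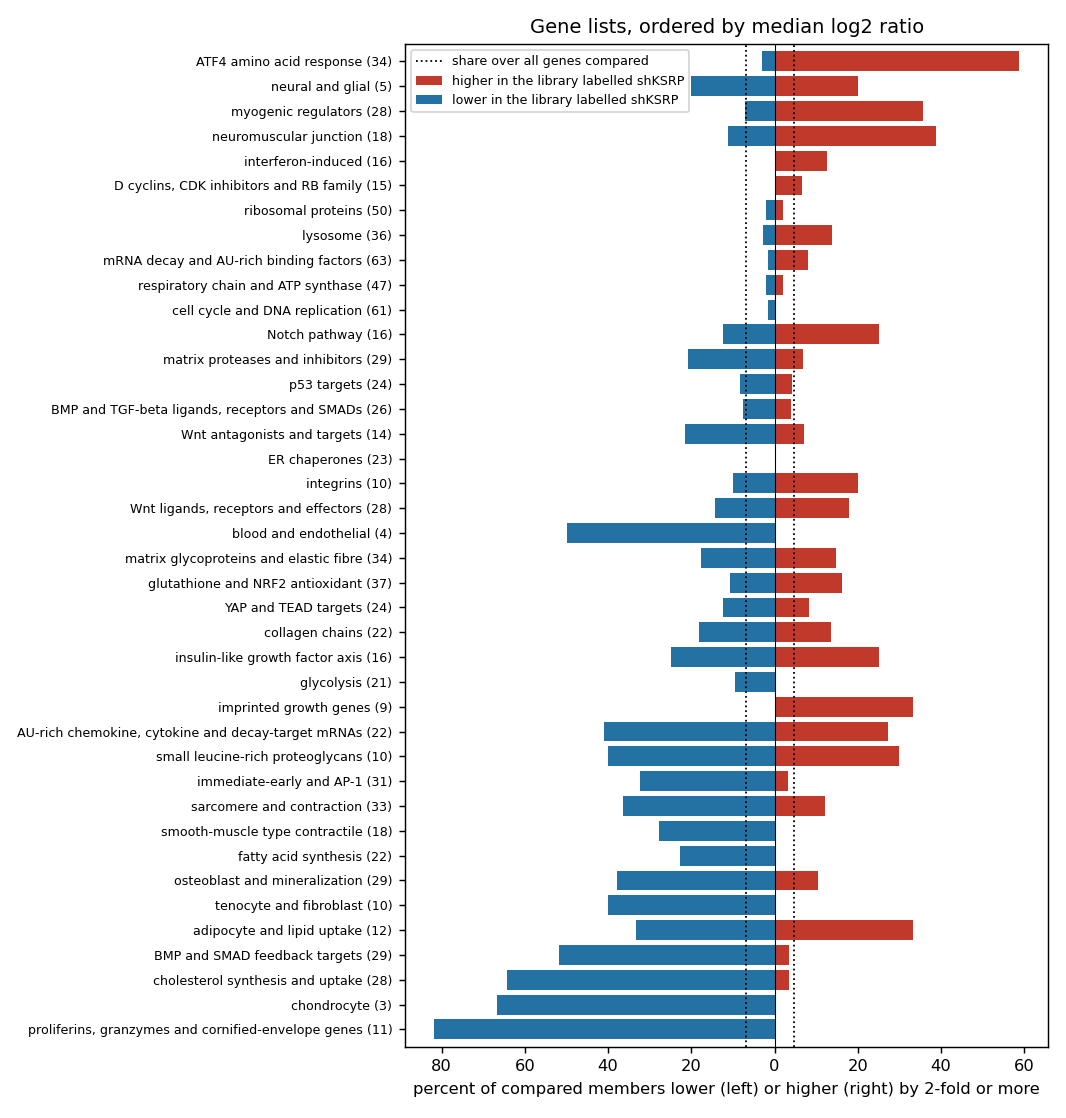
Bars give the percent of compared members of each of 40 gene lists that were higher (right) or lower (left) by 2-fold or more, with the number compared in parentheses. Dotted lines mark the shares over all genes, 4.76% and 6.8%. The amino acid response has the longest bar to the right, and the proliferin, cholesterol, chondrocyte and BMP lists the longest to the left.

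Of the 40 gene lists, the one with the most members on the higher side was the amino acid response driven by ATF4. This transcription factor is translated when amino acids run short or unfolded proteins build up. It switches on amino acid synthesis, transport and tRNA charging. Of the 34 compared genes of this list, 20 were higher in the library labelled shKSRP, 1 was lower and 13 were neither. The median log2 ratio was 1.43, beside −0.02 over all genes. Set against mock, the same 34 genes had a median log2 ratio of 0.28 in shKSRP-labelled cells and −0.96 with BMP2. Most of the distance between the libraries thus lay on the BMP2 side of the mock level. These comparisons share their libraries and are given side by side only.

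Fgf21, a secreted metabolic hormone, stood at 0.743 ± 0.24 FPKM in mock, 14.7 ± 1.1 in shKSRP-labelled cells and 0.141 ± 0.11 with BMP2. Aldh1l2, a mitochondrial enzyme of folate metabolism, stood at 32.9 ± 0.56 FPKM in shKSRP-labelled cells, 1.7 ± 0.13 with BMP2 and 10.7 ± 0.47 in mock. Both were above mock in the library labelled shKSRP and below it with BMP2, with log2 ratios of 3.78 and 3.65. Chac1, which degrades glutathione, was at 5.08 ± 0.48 FPKM with BMP2 and 60.8 ± 1.5 in shKSRP-labelled cells, beside 39.2 ± 1.3 in mock (log2 ratio 3.35). Slc7a5, the leucine transporter subunit, followed the same order at 69.7 ± 1.4 FPKM under the shKSRP label and 7.54 ± 0.49 with BMP2, next to 36.9 ± 0.82 in mock (log2 ratio 3.05). The enzymes of serine, asparagine and cysteine synthesis had the same direction. Cth, which makes cysteine, was among the 15 highest ratios at loci with a single gene, at 16.6 ± 0.94 FPKM in the library labelled shKSRP against 0.651 ± 0.16 with BMP2. Psat1 and Asns, which make serine and asparagine, were chosen after their values were seen. Psat1 stood at 143 ± 2.3 FPKM in mock, 146 ± 2.1 in shKSRP-labelled cells and 17.4 ± 0.74 with BMP2, close to equal in mock and the library labelled shKSRP and lower with BMP2. Asns was at 147 ± 2.5 FPKM in shKSRP-labelled cells, 23.1 ± 1.1 with BMP2 and 119 ± 2.3 in mock.

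The tRNA synthetases Aars, Iars, Nars, Sars and Gars, also chosen after their values were seen, were among the 20 higher genes, with log2 ratios from 1.22 (Gars) to 2.05 (Aars). Atf4 itself was not called: its mRNA was at 227 ± 4 FPKM with BMP2 and 266 ± 3.1 in shKSRP-labelled cells, beside 447 ± 5.5 in mock, a log2 ratio of 0.23. Slc38a2, a neutral amino acid transporter, was the only lower member at 105 ± 1.1 against 218 ± 2.4 FPKM, and its direction turned when RefSeq transcripts alone were summed (log2 ratio 0.53). By exon coverage it was not called (−0.83), and the higher members were again 20. A pair of members had no ratio because they were listed at 0 with BMP2. Ddit3, which encodes CHOP, was listed at 0 in mock too and at 42 ± 1.8 FPKM in the library labelled shKSRP. Psph, which completes serine synthesis, was at 37.2 ± 1.2. The 23 chaperones of the endoplasmic reticulum, which belong to the other branches of the unfolded protein response, had no member past 2-fold in either direction and a median of −0.07.

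The composite element read by ATF4 and its partners was searched as TGATGNAA on both strands, N being any base, in the 250 bases before each RefSeq start; this motif was added after the values were seen. It was found in 7 of 22 promoters (31.8%) of the members that were higher and in 9 of 37 (24.3%) of all compared members, against 1.92% of 10913 promoters of compared genes and 3.45% of all 32851 promoters in the RefSeq table. These promoters cover 17 of the 20 higher and 30 of the 34 compared members. The list was made of genes of the ATF4 response, so its share does not bear on the difference between the libraries. Over all genes called, the motif was in 3.76% of promoters of higher genes and 2.58% of those of lower genes. A match is a description of the letters and not a binding site. The promoters of Fgf21 (chr7:45615491-45615740, minus strand), Chac1 (chr2:119350992-119351241, plus strand) and Asns (chr6:7693210-7693459, minus strand; RefSeq, build GRCm38.p6) are printed 5′ to 3′ up to the base before the start, because these genes carried some of the widest differences. Capitals mark the match on either strand.
Fgf21: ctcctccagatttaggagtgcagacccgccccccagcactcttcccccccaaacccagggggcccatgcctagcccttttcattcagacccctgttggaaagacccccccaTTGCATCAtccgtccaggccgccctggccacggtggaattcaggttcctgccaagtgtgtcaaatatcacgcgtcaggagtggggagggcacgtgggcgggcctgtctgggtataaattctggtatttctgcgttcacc
Chac1: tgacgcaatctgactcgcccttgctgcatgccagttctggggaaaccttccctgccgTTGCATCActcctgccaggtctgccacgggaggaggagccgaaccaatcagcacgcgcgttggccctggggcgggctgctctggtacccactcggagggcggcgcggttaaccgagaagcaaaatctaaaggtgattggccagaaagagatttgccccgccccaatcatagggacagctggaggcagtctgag
Asns: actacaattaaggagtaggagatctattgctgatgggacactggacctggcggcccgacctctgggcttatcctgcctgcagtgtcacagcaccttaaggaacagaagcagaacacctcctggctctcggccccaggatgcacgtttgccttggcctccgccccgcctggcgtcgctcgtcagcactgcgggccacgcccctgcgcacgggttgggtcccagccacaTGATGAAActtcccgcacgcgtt
In Fgf21 and Chac1 the match lies on the opposite strand and reads TTGCATCA, and in Asns it lies on the printed strand and reads TGATGAAA.

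Genes of cholesterol synthesis and uptake lay on the other side. This pathway builds sterols from acetyl-CoA through mevalonate and is switched on as a unit by SREBP2 when membrane sterol is low. Of 28 compared genes, 18 were lower in the library labelled shKSRP, 1 was higher and 9 were neither, with a median log2 ratio of −1.38. Against mock the median was −0.10 in shKSRP-labelled cells and 1.07 with BMP2, so here too the BMP2 library lay farther from mock. The serum differs between the libraries, 20% fetal bovine against 2% horse, and its part in these values was not tested.

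Insig1, the sterol-sensing anchor of SREBP in the endoplasmic reticulum, stood at 16.6 ± 0.64 FPKM in mock, 6.06 ± 0.37 in shKSRP-labelled cells and 63 ± 1.3 with BMP2, with a log2 ratio of −3.18. Fdps, which makes farnesyl pyrophosphate, was at 53.2 ± 1.7 FPKM under the shKSRP label and 394 ± 4.8 with BMP2, next to 90.0 ± 2.3 in mock (log2 ratio −2.87). Idi1 and Msmo1, an isomerase of the early steps and a sterol oxidase of the late steps, had log2 ratios of −2.62 and −2.44. All 4 were lower in the library labelled shKSRP than in mock and higher with BMP2 than in mock. By exon coverage 18 members were again lower, and with RefSeq transcripts alone 15. Lpl, a lipase of the vessel surface, was the single member on the higher side, at 23.6 ± 0.58 against 9.95 ± 0.4 FPKM. Acat2, Fdft1 and Tm7sf2 were each at a listed 0 in shKSRP-labelled cells and at 87.8 ± 1.7, 74.7 ± 1 and 34.3 ± 1.3 FPKM with BMP2, and they are not counted.

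The sterol regulatory element, searched as TCACNCCAC on both strands, was found in 0 of the 12 promoters of lower cholesterol genes that the table holds, against 0.99% of promoters of compared genes. That says only that these letters are not in this window. In fatty acid synthesis, 5 of 22 genes were lower and 0 were higher (median −0.48). Scd1, the stearoyl-CoA desaturase, stood at 39.96 ± 0.74 FPKM in mock, 48 ± 0.9 in shKSRP-labelled cells and 546 ± 3.3 with BMP2, and its log2 ratio of −3.48 shrank to −1.9965 by exon coverage and to −0.92 with RefSeq transcripts alone. Fads2, a desaturase of polyunsaturated fats, was at 17.5 ± 0.72 against 52 ± 1 FPKM, in assembled transcripts only. Acss2 and Aacs, which make acyl-CoA from acetate and acetoacetate, had log2 ratios of −1.55 and −1.47. Exons of Acss2 overlap those of another gene.

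**Figure D3:**
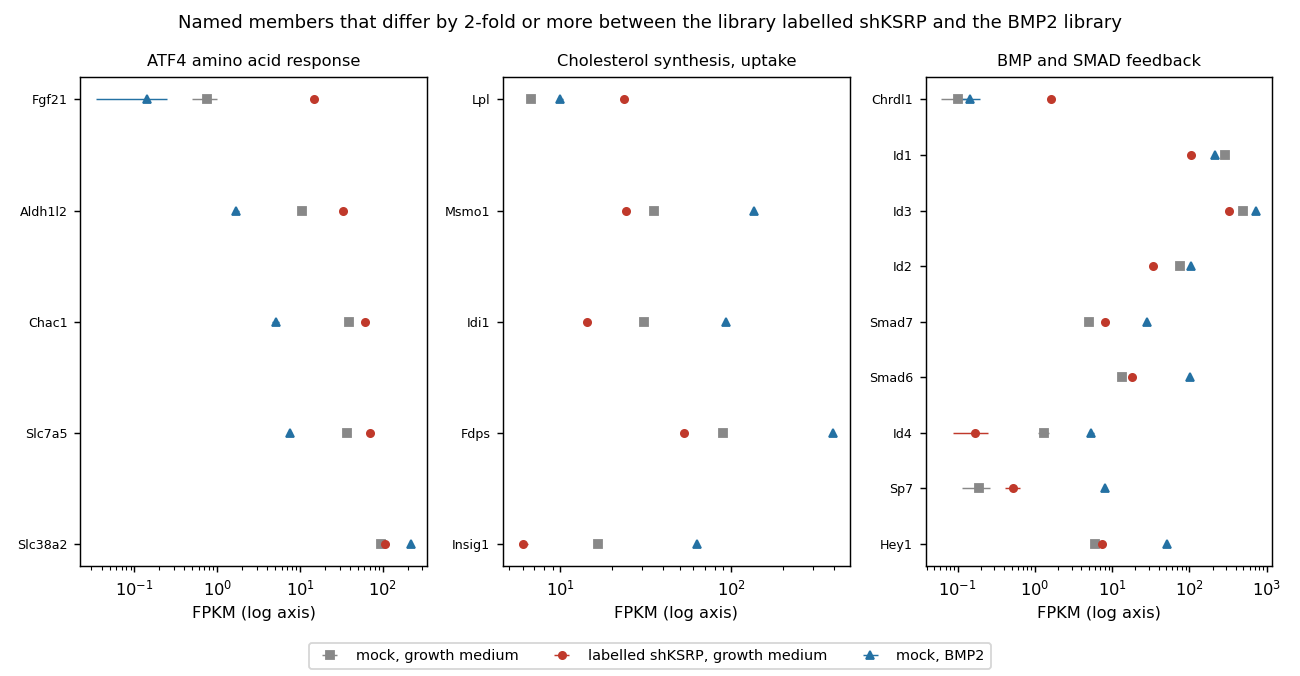
Points give FPKM (log axis) in mock (grey squares), the library labelled shKSRP (red circles) and the BMP2 library (blue triangles), with the deposited interval as a line, for members past 2-fold in 3 lists that are named here by the naming rule, not those chosen after their values were seen. Over all members past 2-fold, drawn or not, BMP2 was the lowest of the 3 for 19 and the library labelled shKSRP the highest for 17 of 20 higher amino acid genes. BMP2 was the highest and the library labelled shKSRP the lowest for 18 and 13 of 18 lower cholesterol genes, and for 14 and 11 of 15 lower BMP targets. The choice by ratio fixes part of this order.

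Genes listed as feedback targets of BMP and SMAD signalling lay mainly on the lower side. Of 29 compared genes, 15 were lower in the library labelled shKSRP, 1 was higher and 13 were neither, with a median log2 ratio of −1.02. Against mock, the median was −0.27 in the library labelled shKSRP and 0.85 with BMP2. Among the inhibitory SMADs, which close the feedback loop, Smad6 stood at 13.2 ± 0.54 FPKM in mock, 18.1 ± 1.1 in shKSRP-labelled cells and 102 ± 2.5 with BMP2. Smad7 was at 8.04 ± 0.32 FPKM in shKSRP-labelled cells, 27.9 ± 0.64 with BMP2 and 4.97 ± 0.32 in mock. Both were closer to mock in the library labelled shKSRP, with log2 ratios of −2.44 and −1.68.

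The Id genes encode partners of helix-loop-helix factors that block their binding to DNA. Id1 stood at 212 ± 4.2 FPKM with BMP2 and 104 ± 2.8 in shKSRP-labelled cells, beside 289 ± 4.9 in mock, Id2 at 33.3 ± 1.3 FPKM under the shKSRP label and 106 ± 2.4 with BMP2, next to 76.3 ± 2.4 in mock, and Id3 at 489 ± 6.2 FPKM in mock, 323 ± 4.8 in shKSRP-labelled cells and 732 ± 7.6 with BMP2. All 3 were lower in the library labelled shKSRP than in mock as well as in the BMP2 library. Id1 was also lower with BMP2 than in mock, and its log2 ratio of −1.02 fell short of 2-fold once a trend with transcript length was taken out (−0.86). Id4 was at 0.167 ± 0.079 FPKM in the library labelled shKSRP against 5.34 ± 0.48 (log2 ratio −2.44). Hey1, a repressor that both BMP and Notch switch on, was at 7.38 ± 0.45 FPKM in shKSRP-labelled cells, 51.4 ± 1.6 with BMP2 and 6.05 ± 0.55 in mock. Noggin (Nog), a secreted BMP antagonist chosen after its values were seen, was at 0.978 ± 0.18 against 8.26 ± 0.54 FPKM. Chrdl1, another secreted antagonist, was the single higher member at 1.61 ± 0.15 against 0.144 ± 0.049 FPKM. It was not among the genes compared by exon coverage, and 0 members were higher by that measure. In the list of ligands, receptors and SMADs, 1 of 26 genes was higher, 2 were lower and 23 were neither. These counts are near the shares over all genes compared, 4.76% higher and 6.8% lower. The genes past 2-fold were Tgfbr2, Tgfb3 and Ltbp2. Tgfbr2, the type II TGF-beta receptor, was higher (75.1 ± 1.1 against 25.7 ± 0.73 FPKM). Tgfb3 and the latent TGF-beta binding protein Ltbp2 were lower (log2 ratios −1.89 and −3.04, the latter −2.22 by exon coverage). Ltbp2 shares its locus with another gene, and its exons overlap those of another gene.

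The GC-rich element of BMP SMADs was searched as GGCGCC, which reads the same on both strands. It was found in 4 of the 8 promoters of lower members that the RefSeq table holds, and in 9 of its 18 for compared members. These promoters cover 8 of the 15 lower and 17 of the 29 compared members. The shares were 17.3% for promoters of compared genes and 9.59% for all promoters. Among the promoters held, the share was thus the same in the members that were lower and in the others. The promoters of Id4 (chr13:48260866-48261115, plus strand) and Id2 (chr12:25096093-25096342, minus strand; RefSeq, GRCm38.p6) are printed as examples, with the match in capitals.
Id4: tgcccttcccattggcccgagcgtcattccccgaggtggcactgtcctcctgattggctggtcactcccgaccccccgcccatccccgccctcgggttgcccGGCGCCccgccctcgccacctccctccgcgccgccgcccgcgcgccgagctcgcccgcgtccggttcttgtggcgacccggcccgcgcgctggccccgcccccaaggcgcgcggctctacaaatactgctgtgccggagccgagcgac
Id2: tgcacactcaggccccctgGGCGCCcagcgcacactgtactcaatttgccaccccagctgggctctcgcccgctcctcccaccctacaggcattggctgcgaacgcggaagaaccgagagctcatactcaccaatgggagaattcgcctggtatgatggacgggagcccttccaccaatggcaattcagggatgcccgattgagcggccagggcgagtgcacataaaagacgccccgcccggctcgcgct

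Genes of the osteoblast were divided. Of 29 compared, 11 were lower in the library labelled shKSRP, 3 were higher and 15 were neither (median −0.60). With RefSeq transcripts alone 7 were lower, and by exon coverage 11. Alpl, the alkaline phosphatase of mineralizing cells, stood at 0.0518 ± 0.037 FPKM in mock, 0.447 ± 0.1 in shKSRP-labelled cells and 12.8 ± 0.82 with BMP2. Sp7 (osterix), the factor that commits cells to bone, was at 8.12 ± 0.51 FPKM with BMP2 and 0.527 ± 0.12 in shKSRP-labelled cells, beside 0.187 ± 0.073 in mock. Omd, a proteoglycan of bone, was at 9.39 ± 0.68 FPKM under the shKSRP label and 119 ± 2.5 with BMP2, next to 7.99 ± 0.55 in mock. These 3 genes were near their mock level in the library labelled shKSRP, or under 1 FPKM in both, and highest with BMP2. Bglap2, an osteocalcin gene, was at 4.29 ± 1 against 43 ± 3 FPKM, but it shares its locus with its near-identical copy Bglap, so fragments may be split wrongly between the copies. Runx2, the master regulator of the lineage, was nearly equal at 13.6 ± 0.43 and 12.8 ± 0.46 FPKM. Col1a1, the main collagen of bone, was at 2.88 ± 0.23 FPKM in mock, 15.7 ± 0.49 in shKSRP-labelled cells and 31.9 ± 0.87 with BMP2, just short of 2-fold (−0.98).

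The 3 members on the higher side were Cdh11, Mgp and Enpp1. Cdh11, a cadherin of mesenchyme and bone, stood at 0.424 ± 0.08 FPKM in mock, 22.2 ± 0.66 in shKSRP-labelled cells and 2 ± 0.24 with BMP2, far above both other libraries. Mgp and Enpp1 act against mineralization, the first as a matrix inhibitor and the second by making pyrophosphate. Mgp was at 586 ± 8.7 FPKM in shKSRP-labelled cells, 203 ± 5.4 with BMP2 and 313 ± 6.7 in mock. Enpp1 was at 2.69 ± 0.23 against 0.766 ± 0.13 FPKM, a ratio that fell under 2-fold with RefSeq transcripts alone (0.98).

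Regulators of the muscle lineage lay mainly on the higher side. Of 28 compared, 10 were higher in the library labelled shKSRP, 2 were lower and 16 were neither, with a median log2 ratio of 0.72. The direction of this median turned to −0.20 when RefSeq transcripts alone were summed, and to −0.13 with the most abundant RefSeq transcript, and it was 0.63 by exon coverage. Cdh15, the M-cadherin of myoblasts, stood at 38.3 ± 0.93 FPKM in mock, 31.1 ± 0.88 in shKSRP-labelled cells and 5.02 ± 0.34 with BMP2 (log2 ratio 2.41). Myf5, a myogenic regulator of undifferentiated myoblasts, was at 9.09 ± 0.54 FPKM with BMP2 and 48.4 ± 1.2 in shKSRP-labelled cells, beside 7.75 ± 0.5 in mock (log2 ratio 2.29). The 2 genes differ in how they reach that ratio: Cdh15 was below mock with BMP2, and Myf5 was above mock in the library labelled shKSRP. Myod1 was at 34.8 ± 1.1 against 17.3 ± 0.89 FPKM, just short of 2-fold at 0.97. Myog, the regulator of terminal differentiation, had the opposite sign at 6.52 ± 0.52 against 11.3 ± 0.73 FPKM (−0.71). Tcf12, a helix-loop-helix partner of Myod1, was at 56.7 ± 1.3 against 18.1 ± 0.65 FPKM. Cdon, a cell-surface promoter of myogenesis, was at 38.6 ± 0.72 against 13.1 ± 0.34 FPKM, and its ratio fell to 0.84 with RefSeq transcripts alone. Lower were Boc, the receptor that pairs with Cdon (−1.28, or −0.92 with RefSeq transcripts alone), and the syndecan Sdc4 (−1.10).

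Genes of the neuromuscular junction had 7 of 18 compared members higher, 2 lower and 9 neither (median 0.71). The median was 0.46 by exon coverage, 0.32 with RefSeq transcripts alone and 0.11 with the most abundant RefSeq transcript. Musk, the kinase that gathers acetylcholine receptors under the nerve, stood at 21.5 ± 0.55 FPKM under the shKSRP label and 3.59 ± 0.22 with BMP2, next to 2.37 ± 0.18 in mock, all from assembled transcripts, with its RefSeq transcripts listed at 0. Lrp4, its co-receptor for agrin, was at 8.18 ± 0.38 FPKM in mock, 28.4 ± 0.45 in shKSRP-labelled cells and 6.69 ± 0.26 with BMP2. The receptor subunits Chrnb1 and Chrnd had 23.7 ± 0.81 against 4.94 ± 0.4 and 4.38 ± 0.57 against 0.55 ± 0.14 FPKM. Rapsn, which clusters these receptors, was listed at 0 with BMP2, at 76.1 ± 1.7 FPKM in the library labelled shKSRP and at 31.3 in mock, and has no ratio. Lower were Etv4, a transcription factor of the ETS family (0.781 ± 0.17 FPKM in shKSRP-labelled cells, 6.57 ± 0.53 with BMP2 and 17.4 ± 0.89 in mock), and the sarcoglycan Sgcd (−1.10).

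Structural genes of the sarcomere had more members lower than higher. Of 33 compared, 4 were higher and 12 lower (median −0.44). Tnni1 and Myl1, a slow troponin and a fast myosin light chain, stood at 7.88 ± 0.69 against 33.8 ± 1.9 and 8.52 ± 1 against 33.3 ± 1.9 FPKM. Tnnc1, the slow and cardiac troponin C, was at 59.2 ± 2.6 FPKM with BMP2 and 18.1 ± 1.4 in shKSRP-labelled cells, beside 39.2 ± 2.1 in mock, and Myh3, the embryonic myosin heavy chain, which shares its locus with another gene, had a log2 ratio of −1.94. Cacng1, a calcium channel subunit of skeletal muscle, was higher at 153 ± 2.9 FPKM under the shKSRP label and 33.5 ± 1.4 with BMP2, next to 51.1 ± 2 in mock, as was the slow troponin Tnnt1 at 4.53 ± 0.73 FPKM in mock, 37.4 ± 2 in shKSRP-labelled cells and 8.91 ± 1.1 with BMP2. Of the 12 lower genes, 7 were left when genes had to reach 5 FPKM and 4 with a pseudocount of 5. Contractile genes of the smooth-muscle type had 5 of 18 lower and 0 higher (median −0.48), among them the LIM protein Csrp2 at 253 ± 4.4 against 752 ± 8.1 FPKM.

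**Figure D4:**
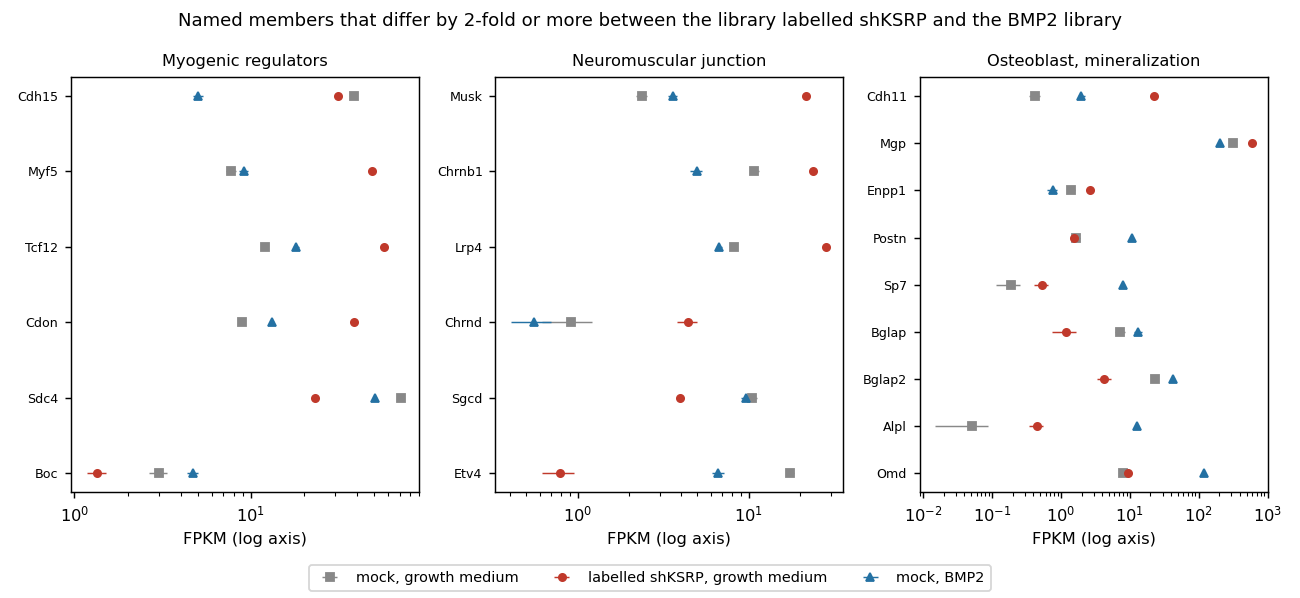
Points give FPKM (log axis) in the 3 libraries, marked as in the plot of the amino acid, cholesterol and BMP lists, for members past 2-fold of the myogenic, neuromuscular and osteoblast lists that are named here by the same rule. Over all members past 2-fold, drawn or not, the library labelled shKSRP was above the BMP2 library for 10 of 12, 7 of 9 and 3 of 14 genes. These counts restate the calls of each list, and over all genes compared 41.2% of calls were higher.

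Genes that answer serum and stretch came next. In the immediate-early list, 10 of 31 compared members were lower in the library labelled shKSRP and 1 was higher (median −0.42). Dusp1, a phosphatase that shuts off MAP kinases, stood at 40.7 ± 1.2 FPKM in mock, 5.07 ± 0.41 in shKSRP-labelled cells and 69.9 ± 1.8 with BMP2. Klf2, a transcription factor known from flow-exposed endothelium, was at 2.69 ± 0.3 FPKM in shKSRP-labelled cells, 25.4 ± 0.98 with BMP2 and 55.2 ± 2.7 in mock. Both were lowest in the library labelled shKSRP. Phlda1 was at 45.8 ± 1.3 FPKM with BMP2 and 12 ± 0.61 in shKSRP-labelled cells, beside 132 ± 4.2 in mock, and in it BMP2 was also below mock. Egr1 was the one gene higher, at 21.9 ± 0.65 against 9.93 ± 0.46 FPKM (1.07). Fos, a founding member of the group, was at 0.546 ± 0.13 and 1.87 ± 0.25 FPKM. The CArG box of serum response factor was present in 22.2% of the 27 promoters of compared members, against 1.23% of promoters of compared genes. These 6 promoters belonged to 3 of 23 genes. The box was in 0 of the 9 promoters of the lower members.

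Among targets of YAP and TEAD, the effectors of the Hippo pathway, 2 of 24 were higher, 3 lower and 19 neither. The shares over all genes compared were 4.76% higher and 6.8% lower, so these counts are near them. The widest difference in the list belonged to Ccn2, the connective tissue growth factor at chr10:24315248-24318488 (mm9). It stood at 138 ± 1.9 FPKM in mock, 2.98 ± 0.27 in shKSRP-labelled cells and 205 ± 2.4 with BMP2, a log2 ratio of −5.69, while its relative Ccn1 differed by less than 2-fold at 177 ± 2.3 against 306 ± 3.2 FPKM. Edn1, endothelin, was lower at 3.33 ± 0.29 against 15.4 ± 0.86 FPKM, but its log2 ratio was only −0.66 with RefSeq transcripts alone, and Crim1 was lower at −1.10. Gadd45a, a stress gene, was higher at 140.2 ± 4.2 FPKM under the shKSRP label and 19.3 ± 1.1 with BMP2, next to 37.8 ± 2.4 in mock. It overlaps exons of another transcript, and strand is not stated. The sequence GGAATG, the TEAD element, was in 8 of 21 promoters (38.1%) of compared members against 10.5% of promoters of compared genes.

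Cell cycle genes differed little between these libraries. Of 61 compared, 60 were neither and 0 were higher (median 0.15). Both libraries lay below mock, with medians of −1.43 for the library labelled shKSRP and −1.59 for BMP2. Cdk1, the mitotic kinase, stood at 214 ± 4.2 FPKM in mock, 34.8 ± 1.6 in shKSRP-labelled cells and 68.6 ± 2.3 with BMP2, with a log2 ratio of −0.96, short of 2-fold. Ccnd1, cyclin D1, was at 67.1 ± 1 FPKM in shKSRP-labelled cells, 51 ± 1.2 with BMP2 and 146 ± 1.6 in mock. The single call in the list, Cenpa, a centromeric histone that was lower (−1.40), was lost with RefSeq transcripts alone (0.0056). Of 15 D cyclins, CDK inhibitors and RB family members, Ccnd2 was the one past 2-fold, higher at 7.41 ± 0.27 against 1.76 ± 0.14 FPKM. The shares over all genes compared were 4.76% higher and 6.8% lower.

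Wnt and Notch genes were split between the directions. In the Wnt list 5 of 28 were higher and 4 lower, and by exon coverage 3 were higher. Wnt10a stood at 0.883 ± 0.2 FPKM with BMP2 and 21.3 ± 0.81 in shKSRP-labelled cells, beside 0.975 ± 0.18 in mock, among the 15 highest ratios at loci with a single gene. Wnt4 and Wnt10b were the reverse, at 11.5 ± 0.42 against 93 ± 1.3 and 6.93 ± 0.48 against 40.4 ± 1.2 FPKM. The gene of beta-catenin, Ctnnb1, was higher by less than 2-fold (253 ± 2.4 against 158 ± 2 FPKM), and both were above the mock level of 68.4 ± 1.4. Of 14 Wnt antagonists and targets, Ccn4 was higher (1.12) and Sfrp4 (−2.13), Dkk2 (−1.58) and Notum (−1.56) were lower. In the Notch list 4 of 16 were higher and 2 lower. Notch3, a receptor of mural and satellite cells, was at 25 ± 0.78 FPKM under the shKSRP label and 4.54 ± 0.19 with BMP2, next to 3.36 ± 0.16 in mock. Hes6, which antagonizes Hes1, was at 127 ± 2.6 against 46 ± 1.6 FPKM. Lfng, the fringe that modifies Notch, was lower at 35 ± 1 FPKM in mock, 13.4 ± 0.59 in shKSRP-labelled cells and 99 ± 1.7 with BMP2.

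The extracellular matrix differed member by member, and each of its lists held members on both sides. Of 22 collagen chains 3 were higher and 4 lower, or 1 lower by exon coverage. With the trend on transcript length taken out, 1 was higher and 7 lower. Col2a1, the collagen of cartilage at chr15:97806033-97835155 (mm9), had the lowest ratio of all genes: it stood at 6.95 ± 0.36 FPKM in mock, 0.0556 ± 0.025 in shKSRP-labelled cells and 68.8 ± 1.2 with BMP2 (log2 ratio −6.05). Of 10 small leucine-rich proteoglycans 3 were higher and 4 lower. Bgn, biglycan, was at 1206 ± 6.5 FPKM in shKSRP-labelled cells, 571 ± 5 with BMP2 and 252 ± 2.6 in mock. Islr was at 58.5 ± 1.7 FPKM with BMP2 and 333 ± 3.5 in shKSRP-labelled cells, beside 7.67 ± 0.57 in mock, and Fmod, fibromodulin, at 151 ± 1.8 FPKM under the shKSRP label and 51.6 ± 1.1 with BMP2, next to 2.03 ± 0.26 in mock. These 3 were above mock in both libraries and highest in the library labelled shKSRP. Dcn, decorin, was lower at 6.88 ± 0.47 against 21.6 ± 0.89 FPKM.

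Of 34 matrix glycoproteins 5 were higher and 6 lower. Emilin1 and Emilin2, related glycoproteins of elastic fibres, lay on opposite sides. Emilin1 was at 0.53 ± 0.099 FPKM in mock, 37.9 ± 0.89 in shKSRP-labelled cells and 4.15 ± 0.3 with BMP2. Emilin2 was at 13.3 ± 0.44 FPKM in shKSRP-labelled cells, 86.1 ± 2 with BMP2 and 19.8 ± 0.57 in mock, with a log2 ratio of −2.60, or −1.96 by exon coverage. Postn, periostin, and Tgfbi, its relative, were both lower (log2 ratios −2.18 and −2.66). Among 29 matrix proteases and inhibitors 2 were higher and 6 lower. The gelatinase Mmp2 was lower, at 34.1 ± 1.3 against 127 ± 1.7 FPKM. So were the inhibitors Timp1 (227 ± 4.9 against 1034 ± 12) and Timp3 (14.7 ± 0.42 against 118 ± 1.5). The aggrecanase Adamts4 was higher, at 33.1 ± 0.72 against 6.76 ± 0.35 FPKM. Of 10 integrins, Itga11 (1.23) and Itgav (1.38, but 0.23 by exon coverage) were higher and Itgb3 (−1.28) was lower.

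AU-rich mRNAs are the class that KSRP binds. Of 22 chemokine, cytokine and other decay-target mRNAs compared, 6 were higher in the library labelled shKSRP, 9 lower and 7 neither (median −0.39). The median ran from −0.07 with no filter on low values to −0.72 with RefSeq transcripts alone. Il1rn, the antagonist of the interleukin 1 receptor, stood at 3.24 ± 0.3 FPKM with BMP2 and 29.1 ± 0.84 in shKSRP-labelled cells, beside 0.377 ± 0.1 in mock. Hmox1, heme oxygenase, was at 226 ± 3 FPKM under the shKSRP label and 40.3 ± 1.3 with BMP2, next to 165 ± 3.2 in mock. Both were well above the BMP2 library, whereas Cxcl5, a neutrophil chemokine, was lower at 43.8 ± 1.4 FPKM in mock, 8.67 ± 0.57 in shKSRP-labelled cells and 45.9 ± 1.4 with BMP2. Il15 and Il33 were lower too (log2 ratios −2.50 and −2.28), as was the cyclooxygenase Ptgs2 (9.19 ± 0.41 against 44.2 ± 0.96 FPKM), while the chemokines Ccl8 and Ccl9 were higher (2.19 and 2.14, the latter 1.22 by exon coverage and 0.49 with RefSeq transcripts alone). Of 63 decay and AU-rich binding factors, 57 were neither, 5 higher and 1 lower (median 0.16), and by exon coverage 1 was higher. Over all genes compared, 4.76% were higher and 6.8% lower. Drosha, which cuts microRNA precursors in the nucleus, was at 32.5 ± 1.2 against 11.9 ± 0.41 FPKM, but the log2 ratio was 0.87 by exon coverage and 0.70 with RefSeq transcripts alone. Hnrnpd, which encodes AUF1 and shares its locus with another gene, was the one lower member (−1.24).

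Metabolic and growth lists followed. In the insulin-like growth factor axis 4 of 16 were higher and 4 lower. Irs1, the docking protein of the receptor, was at 108 ± 1.2 against 19.5 ± 0.37 FPKM by all transcripts, a log2 ratio of 2.41, which was 1.75 by exon coverage and 0.58 with RefSeq transcripts alone. Igfbp5 was higher and Igfbp2 lower (log2 ratios 1.49 and −1.58). Of 37 glutathione and antioxidant genes 6 were higher and 4 lower. Gsta2 and Gsta1, near-identical transferases between which fragments can be misassigned, were both higher (12.1 ± 1.2 against 0.304 ± 0.18 and 15.9 ± 1.1 against 1.14 ± 0.32 FPKM), and Gsta4 was higher at 1.91. In the imprinted list 3 of 9 were higher, one of them Peg3, whose interval was wider than its value, and 0 were with RefSeq transcripts alone. The interferon-induced list had 2 of 16 higher, p53 targets had 1 of 24 higher and 2 lower (0 and 1 by exon coverage), and the lysosome list had 5 of 36 higher and 1 lower. The lists of 21 glycolytic, 47 respiratory and 50 ribosomal protein genes had 2 calls each. Beside these counts, the shares over all genes compared were 4.76% higher and 6.8% lower.

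Genes of cell types other than myoblasts and osteoblasts were also summed. Of 11 proliferin, granzyme and cornified-envelope genes, which some C2C12 cultures express, 9 were lower and 0 higher (median −1.80). Among them, Gzme, a granzyme, stood at 0.0552 ± 0.064 FPKM in shKSRP-labelled cells, 4.72 ± 0.63 with BMP2 and 23.1 ± 1.4 in mock, and Sprr1a at 5.43 ± 0.74 FPKM with BMP2 and 0.0894 ± 0.089 in shKSRP-labelled cells, beside 33.4 ± 1.8 in mock. The summed FPKM of 24 adipocyte and lipid uptake genes was 423 in mock, 2153 in shKSRP-labelled cells and 691 with BMP2. In shKSRP-labelled cells most of that sum was Car3, a carbonic anhydrase of fat and slow muscle. It stood at 1854 ± 9.8 FPKM under the shKSRP label and 292 ± 3.7 with BMP2, next to 55.5 ± 1.9 in mock. Of the 12 compared, 4 were higher and 4 lower, and Fabp4, the fatty acid carrier of fat cells, was lower (0.531 ± 0.25 against 5.1 ± 0.82 FPKM). Chondrocyte genes summed to 7.34 FPKM in the library labelled shKSRP and 89.4 with BMP2, where Col2a1 held most of it, and Sox9, the cartilage regulator, was lower (−1.40). Tenocyte and fibroblast genes summed to 5707 and 12074 FPKM, with 4 of 10 lower and 0 higher. S100a4 held most of both sums, at 4964 and 9935 FPKM. Its call (−1.0009) was lost with the length trend taken out (−0.93). Prrx1 (84.5 against 78.1 FPKM) and Osr1 (2.05 against 1.65) lay the other way by less than 2-fold. Ly6a, a marker of mesenchymal progenitors, was at 993 ± 11 FPKM in mock, 241 ± 5.5 in shKSRP-labelled cells and 1488 ± 15 with BMP2. It shares its locus with another gene. Pdgfra had a log2 ratio of −1.37. Blood and endothelial genes summed to 11.4 and 15.6 FPKM, with Adgre1, Itgam and Cd3e listed at 0 in all 3 libraries. Of the 4 compared, 2 were lower and 0 higher. By exon coverage 0 were lower, as Csf1r was not compared and Cd14 fell short of 2-fold (−0.98). The lower genes were Csf1r (0.209 against 2.13 FPKM) and Cd14 (4.61 against 10.5). Lyz2, chosen after its values were seen, lay the other way (3.98 against 1.83). Of 3 epithelial markers, Epcam was listed at 0 in all 3 libraries and Krt18 was at 0.0123 FPKM in mock and a listed 0 elsewhere. Krt14, a basal keratin that shares its locus with another gene, was at 18.4 ± 1 FPKM in shKSRP-labelled cells, 264 ± 3.3 with BMP2 and 114 ± 2.7 in mock (log2 ratio −3.77). The part of other cell types in the results was not tested.

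Among single genes, AI506816 had the highest ratio, at 118 ± 1.9 FPKM in the library labelled shKSRP, 0.672 ± 0.41 with BMP2 and a listed 0 in mock. All of the 118 FPKM came from assembled transcripts, most of whose length lay off the RefSeq exons of the gene. By exon coverage it was at 4.03 FPKM in the library labelled shKSRP, 0.136 with BMP2 and 6.41 in mock, so its log2 ratio was 2.15, not 6.15, and mock was the highest of the 3. In mock and with BMP2, assembled transcripts of separate loci lay over the same stretch and are not in its value. Ncf4, which belongs to the NADPH oxidase of phagocytes, came next at 5.33 ± 0.96 FPKM with BMP2 and 238 ± 5 in shKSRP-labelled cells, beside 1.48 ± 0.53 in mock. Slfn2, a schlafen known from T cells, Pvalb, a calcium buffer of fast muscle, Dpyd, which degrades pyrimidines, and Slc40a1, the iron exporter ferroportin, had log2 ratios of 3.87, 3.79, 4.27 and 3.60. These 4 genes were low in mock and with BMP2, and the library labelled shKSRP alone stood high for them. Peg3, an imprinted gene that overlaps Peg3os, had an interval wider than its value (25 ± 55 FPKM) and is not relied on. On the lower side stood Cck, the hormone cholecystokinin, at 0.0269 ± 0.054 FPKM under the shKSRP label and 25.6 ± 1.8 with BMP2, next to 13 ± 1.2 in mock. Serping1, the inhibitor of complement C1, was at 5.52 ± 0.45 FPKM in mock, 0.176 ± 0.077 in shKSRP-labelled cells and 18.5 ± 0.84 with BMP2. Both were all but absent in the library labelled shKSRP, at a level above 1 FPKM in mock, and highest with BMP2, the order that Col2a1 and Ccn2 also had.

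Transcript length moved with the ratio. Across the 10767 genes, which are not independent replicates, Spearman's rho between length and log2 ratio was 0.21. The median log2 ratio was −0.16 for genes of at least 1000 and under 2000 nt and 0.23 for genes of 6000 nt or more, and in the longest class 9.64% were higher and 5.47% lower. With a smooth trend on length taken out, 492 genes were higher and 707 lower. The medians of the main lists moved little: 1.397 for the amino acid response, −1.37 for cholesterol, −0.99 for BMP targets and 0.76 for myogenic regulators. The cause of the trend was not tested.

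The ratio also differed by chromosome. Over the 10597 genes above 0 in all 3 libraries, the median log2 ratio by chromosome ran from −0.28 on chromosome 5 to 0.18 on chromosomes 1 and 11. On chromosome 5, 74.4% of 671 genes were below 0, and on chromosome 11, 34.5% of 856. Chromosomes 10 and 14 were low (−0.26 and −0.21), and chromosome 9 was high (0.16). The library labelled shKSRP had nearly the same spread against mock, −0.28 to 0.25, whereas the BMP2 library against mock ran only from −0.04 to 0.10. In blocks of 50 neighbouring genes, all 13 blocks of chromosome 5 and all 10 of chromosome 10 had a median below 0, and all 12 of chromosome 1, all 11 of chromosome 9 and all 17 of chromosome 11 had one above 0. For the library labelled shKSRP over mock, the same sign was found in 13 of 13, 9 of 10, 11 of 12, 11 of 11 and 15 of 17 blocks of chromosomes 5, 10, 1, 9 and 11. Most blocks of these chromosomes thus had 1 sign in each pair of libraries that holds the library labelled shKSRP. For BMP2 over mock, 7 of 13, 4 of 10, 2 of 12, 4 of 11 and 4 of 17 blocks of the same chromosomes were below 0. In the main ratio, all blocks of chromosomes 12, 14 and 16 also had a median below 0, and all of 3 and X above 0. The remaining chromosomes had blocks of both signs in the main ratio, such as chromosome 2 (11 below 0 and 6 above) and chromosome 8 (6 and 5). The block medians are small beside a 2-fold call. With each chromosome's median taken out, 503 genes were higher and 688 lower. The amino acid response then had 22 of 34 higher and 0 lower, cholesterol 18 of 28 lower, BMP targets 14 of 29 lower and myogenic regulators 9 of 28 higher. The cause was not tested.

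**Figure D5:**
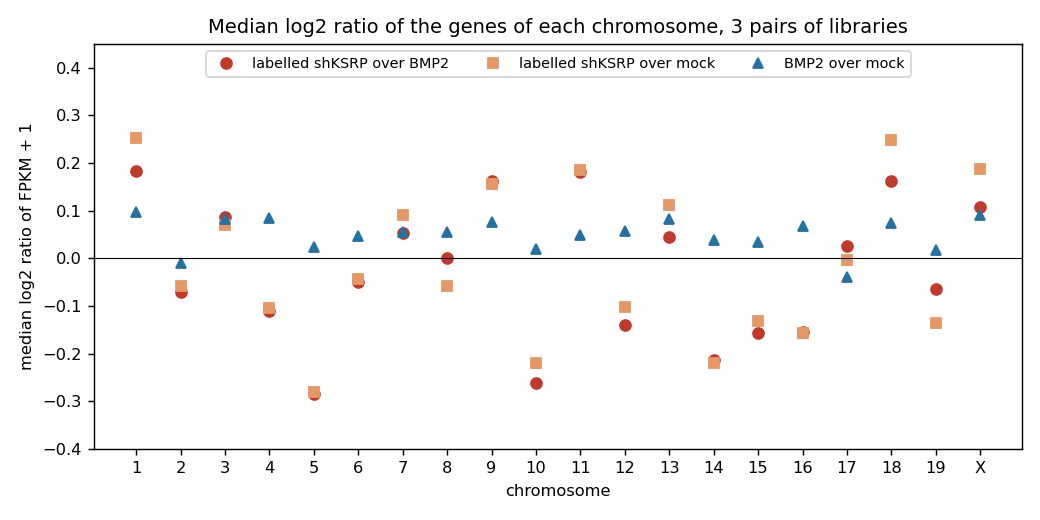
Each point is the median log2 ratio of FPKM + 1 over the genes of a chromosome, for the library labelled shKSRP over BMP2 (red circles), the same library over mock (orange squares) and BMP2 over mock (blue triangles). Red and orange points lie close together, from −0.28 to 0.25, and blue points stay between −0.04 and 0.10.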

How the data were processed

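The deposited values are FPKM with 95% intervals, which the authors made with Cufflinks, per the file headers. Build mm9 and the tools Cufflinks 1.3.0, TopHat 1.4.1, Bowtie 0.12.7 and CASAVA 1.8 stand in the submitters' processing notes, with no role. Strand is not stated, and PCR copies carried no molecular identifiers. Gene FPKM was the sum over RefSeq transcripts and over transcripts assembled at the same locus. Of 28222 accessions, 27563 took their symbol from RefSeq, 166 from GENCODE, 216 from the files, and 277 kept the accession. Whole reads could not be recovered. Genes sharing a locus (1281 of those compared) have an uncertain division of fragments.

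Ratios are log2 of FPKM + 1, unscaled, in Python 3.11.15 with pandas 2.3.3. The 2-fold rule is no test. The 40 gene lists and the members were chosen with earlier results of these data known. Named were the 15 highest and 15 lowest ratios at single-gene loci, up to 4 genes per direction and list, fixed genes, and 3 just inside and outside the line on each side. Some genes this rule names are not reported here. The members Col12a1, Itga10, H19, Prl2c4, Cd68 and Hbb-b1 matched no symbol. Alternatives changed the pseudocount, the filter, the scaling, the length trend, the transcripts summed and shared loci, and, chosen after seeing the data, took out chromosome medians or used FPKM weighted by bases on RefSeq exons.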

Additional observations from a re-analysis of the deposited data

How the results depend on the processing

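The 513 higher and 732 lower genes became 239 and 372 with a pseudocount of 5. Under every other alternative run they stayed within 1.5 times, from 391 to 743 higher and from 575 to 992 lower. The balance between the directions turned with RefSeq transcripts alone (743 higher and 716 lower) and with the most abundant of them (722 and 705). With a pseudocount of 5, myogenic regulators had 4 higher and 0 lower, neuromuscular junction genes 1 lower, and BMP targets and cholesterol genes 0 higher. When genes had to reach 5 FPKM, BMP targets had 0 higher and myogenic regulators 1 lower. With only RefSeq transcripts summed, or only the most abundant of them used, 7 osteoblast genes, 1 neuromuscular junction gene and 0 genes of the amino acid response were lower. With the length trend taken out, 1 neuromuscular junction gene was lower, and with both libraries set to the same upper quartile, 0 genes of the amino acid response were. Under both RefSeq settings the log2 ratio turned to 0.0056 for Cenpa and 0.53 for Slc38a2. Of the 130 called genes named here, 115 had a ratio from RefSeq transcripts alone and 102 of these kept their call, 103 of 130 kept it with a pseudocount of 5, and 121 of 128 by exon coverage. The cause of these shifts was not tested. By exon coverage, which did not compare Chrdl1, 0 BMP targets were higher and 0 genes of the amino acid response lower. This measure and the removal of chromosome medians were chosen after seeing the data. The files give FPKM and no counts, so depth limits are known only through the deposited intervals, and 1 library a side leaves the spread between cultures unknown. No paired analysis was possible because each group has 1 library.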

Other observations

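Of the genes not compared, 441 were at 1 FPKM or more in one of the libraries and listed at 0 in the other, 260 of them at 0 in shKSRP-labelled cells and 181 at 0 with BMP2. A listed 0 can be a failed estimate, so no fold is given. The genes below were chosen after their values were seen. Sod2, the mitochondrial superoxide dismutase, was listed at 0 with BMP2, at 53.8 ± 2 FPKM in the library labelled shKSRP and at 20.0 in mock. By coverage of its RefSeq exons it was at 18.0 FPKM in the library labelled shKSRP. Bmp2, the gene of the added ligand, was listed at 0 in the library labelled shKSRP and at 1.22 ± 0.2 FPKM with BMP2. Notch1 was listed at 0 in the library labelled shKSRP against 1.74 ± 0.11 FPKM. Zfp36, which encodes the AU-rich binding protein tristetraprolin, was listed at 0 in the library labelled shKSRP, at 14.2 ± 0.75 FPKM with BMP2 and at 10.9 in mock. Rb1, the retinoblastoma gene, was listed at 0 there too, against 6.55 ± 0.32 and 7.34 FPKM.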
